A study of Mus musculus with 24 samples.

Results

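The 38 interferon-stimulated genes described here were listed by name, with no threshold on measured values, as genes known to be induced by type I, type II, or type III interferon. The list was drawn up with earlier results of these data known. Its shares set beside those of all genes are therefore a description and not an independent test. All 38 have a row in the count table, which holds 55421 mouse genes. Of these, 18046 genes passed a filter on low counts and were tested, 37 of the 38 among them. Oas2, a synthetase of short oligoadenylates, had too few counts to be tested.

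Interferons bind paired receptor chains, which activate Jak kinases and Stat proteins. Stat2 and Irf9 belong to the complex that binds the interferon-stimulated response element, and the gamma-activated sequence is the other element of this gene class. The induced genes restrict viral RNA, cap or ubiquitin chemistry, membrane fusion, and intracellular vacuoles, and several of them are expressed at a low level in unstimulated epithelium.

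Alveolar epithelial type 2 cells (AEC2s), the surfactant-producing progenitors of the alveolus, came from wild-type mice (Krt8+/+) or from mice that lack keratin 8 throughout the body (Krt8-/-). RNA was taken from fresh cells (D0) and after 1, 3, and 7 days in 2D culture (D1, D3, D7), where AEC2s lose their identity and pass through a keratin-rich transitional state. No interferon, virus, or drug was given in any group. Each of the 8 groups of genotype and day had 3 libraries, 1 from each of 3 batches, which carry a date and a biological replicate number in the labels. Whether the 4 days of a batch and genotype came from 1 cell preparation is not stated, nor are the strain, the age, or the number of mice behind a batch.

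Libraries held 10184439 to 19483386 counts. Values are given as CPM (read counts scaled to a common library size), adjusted with edgeR's TMM factors. The targeted gene, Krt8, was at 485 to 5092 CPM in Krt8+/+ and at 21.2 to 47.4 CPM in Krt8-/- libraries. Sex-linked transcripts divided the batches: in batch 1, the Krt8+/+ libraries had Xist and at most 0.441 CPM from Y-linked genes, whereas the Krt8-/- libraries had 173 to 191 CPM from Y-linked genes. In batches 2 and 3 both genotypes had the same pattern. The summed AEC2 markers, 8 of 8 detected, ran from 229208 to 307642 CPM on D0 and from 157 to 253 CPM on D7, and the 4 epithelial markers summed to 1879 to 9551 CPM over all libraries. Fibroblast markers, 7 of 7 detected in each group, summed to 295 to 985 CPM on D0, 94.7 to 255 CPM on D1, 631 to 1786 CPM on D3, and 834 to 3175 CPM on D7.

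Promoter windows are shown for 6 of the genes because the pair of elements named above is the shared sequence feature of this gene class. RefSeq (GRCm38.p6) windows from 250 bases before to 50 bases after the start were at hand for 28 of the 38 genes, too few for a share over the list. The missing entries are Zbp1, Usp18, Parp9, Parp14, Oas2, Mx1, Mx2, Ifi27, Rtp4, and Iigp1. The core of the response element, GAAANNGAA on either strand, was in at least 1 window of 18 of the 28, and in 9.76% of 27025 genes with a window. The gamma-activated sequence TTCNNNGAA, which reads the same on both strands and may overlap the core, was in 8 of the 28 and in 9.55% of all genes. The stretches below run 5′ to 3′ on the strand of the gene, end before the start of transcription, and have the response element core in capitals. A match is a description of the letters and not evidence of binding.

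Ifit1, chr19:34640780-34640839, plus strand: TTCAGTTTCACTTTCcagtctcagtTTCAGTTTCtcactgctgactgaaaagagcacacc
Ifit3, chr19:34583402-34583461, plus strand: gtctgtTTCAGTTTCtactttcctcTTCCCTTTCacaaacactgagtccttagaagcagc
Isg15, chr4:156200850-156200909, minus strand: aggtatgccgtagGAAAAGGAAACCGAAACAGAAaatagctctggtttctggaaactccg
Rsad2, chr12:26456537-26456596, minus strand: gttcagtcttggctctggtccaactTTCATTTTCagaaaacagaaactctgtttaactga
Bst2, chr8:71537562-71537621, minus strand: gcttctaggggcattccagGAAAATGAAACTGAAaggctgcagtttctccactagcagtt
Gbp7, chr3:142530259-142530318, plus strand: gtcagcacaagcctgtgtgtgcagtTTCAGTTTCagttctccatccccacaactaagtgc

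Ifit1, Ifit3, Isg15, and Bst2 have more than 1 core in their windows, some of them overlapping, and Rsad2 and Gbp7 have 1 each. As the comparisons below show, genes with a core went in both directions in culture. Oasl1, Oasl2, Cmpk2, Irf7, and Irf9 have windows with no core, which says only that these letters are not in those 300 bases.

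The genes spanned a wide range of levels. Per kilobase of annotated exon and averaged over the 24 libraries, Ifitm3, which blocks fusion of viral and cell membranes, was highest at 66.7 CPM per kb. Ifi27, a mitochondrial protein, followed at 34.7 CPM per kb, and Bst2 (tetherin, which holds budding virus at the membrane) was at 17.2 CPM per kb. At the low end, Mx2, annotated as a polymorphic pseudogene in the mouse reference, was at 0.130 CPM per kb and Oas2 at 0.0389 CPM per kb. Several genes share sequence with close copies, so their counts depend on how reads were assigned. Of the 50-base words of Ifit3, 51.2% also occur in other genes, chiefly Ifit3b, and 57.6% of those of Oas1a do so, chiefly in Oas1g. For Gbp7, Herc6, Igtp, and Rtp4 the share was 11.6% to 12.7%. Dtx3l and Parp9 overlap on opposite strands of chromosome 16, and whether the counting used strand is not given in the sources used here.

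**Figure D1:**
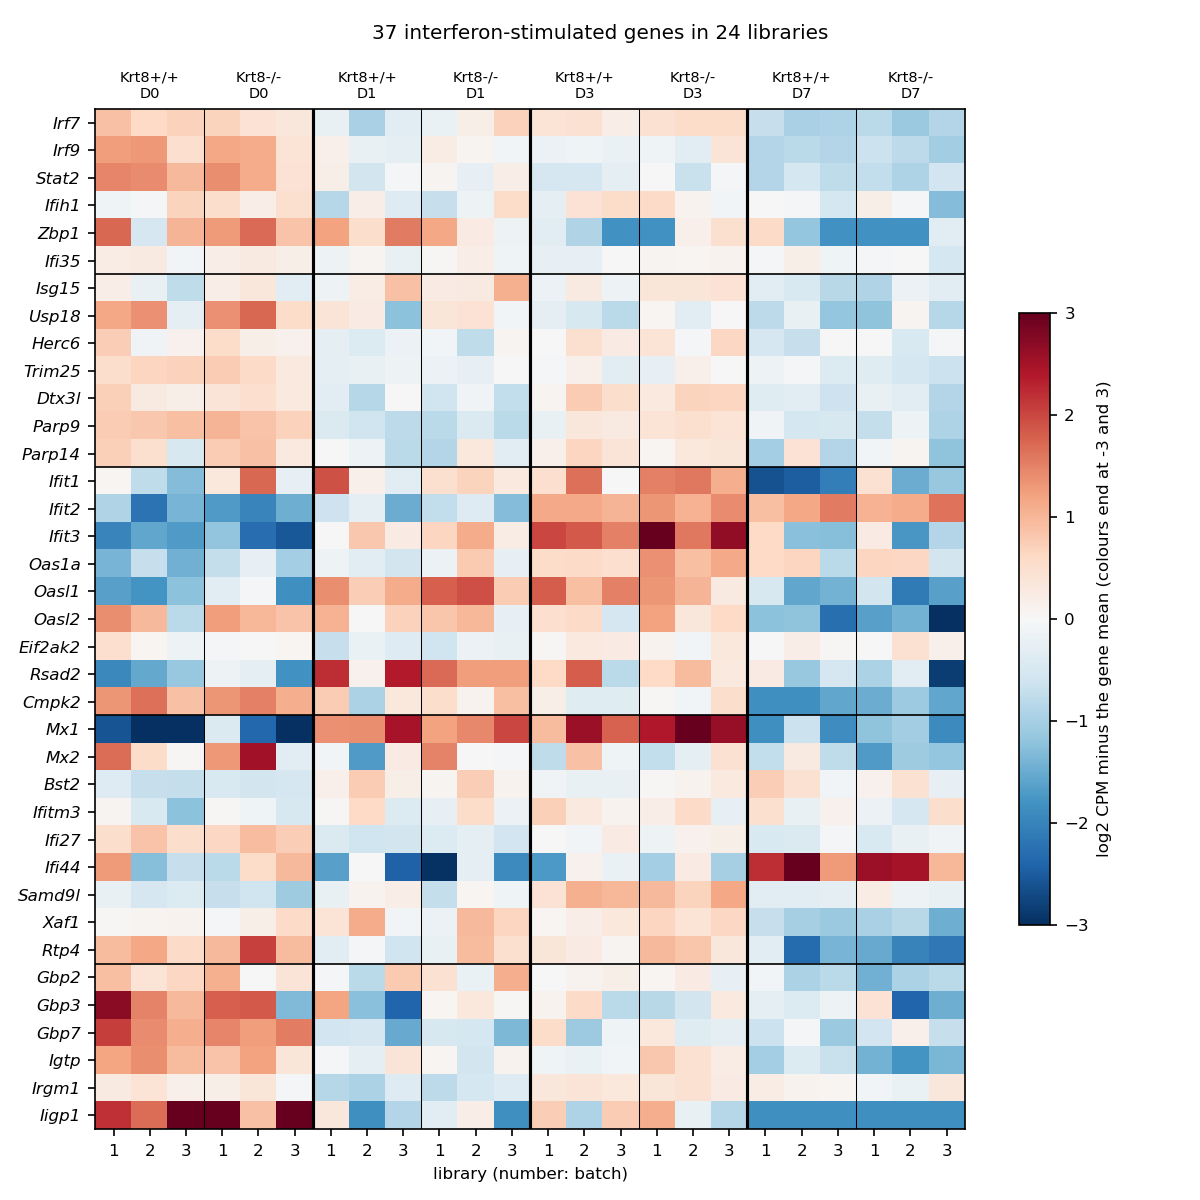
Colour gives log2 CPM (prior count 2) minus the mean of the gene over 24 libraries, with 1 row per gene in 5 role groups (regulators, ISG15 and ubiquitin system, RNA-binding effectors, membrane effectors, GTPases) and 1 column per library. Mx1, Ifit2, and Ifit3 have their lowest group means on D0, and Cmpk2, Oasl2, and Rtp4 have theirs on D7, in both genotypes.

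Between fresh cells and D1, calls went in both directions, as they did over all genes tested. From D0 to D1 in Krt8+/+ cells, 5 of 37 rose, which is 13.5% against 26.2% of all genes tested, and 14 fell, which is 37.8% against 28.5% of all genes (edgeR's quasi-likelihood test, adjusted p under 0.05). Krt8-/- cells had 7 that rose (18.9%) against a background of 23.7%, and 10 fell against 26.9%, a share of 27.0%. The median log2 change of the 37 was -0.60 in Krt8+/+ and -0.53 in Krt8-/- cells, and that of all genes was 0 and -0.01. All genes called higher were RNA-binding, nucleotide, or membrane and other effectors. No regulator, no member of the ISG15 and ubiquitin system, and no Gbp or immunity-related GTPase was called higher in either genotype by edgeR or DESeq2.

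Mx1, a dynamin-like GTPase that traps viral nucleoprotein, was near absent in fresh cells and present in every D1 library. In Krt8+/+ cells it was at 0.0636, 0, and 0 CPM on D0 in batches 1, 2, and 3, and at 3.08, 3.18, and 6.79 CPM on D1. The Krt8-/- libraries went from 0.792, 0.101, and 0 CPM to 2.78, 3.24, and 4.90 CPM. The groups did not overlap in either genotype. The Krt8+/+ D0 libraries held 1 count in all against 180 on D1, a ratio of 152 with a 95% counting interval of 26.9 to 6028, so its size is not well determined (fitted log2 change 6.85, SE 1.02, adjusted p = 1.29e-05). The Krt8-/- change was 3.50 (SE 0.74, adjusted p = 0.000539).

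Rsad2 (viperin, a radical enzyme that makes a chain-terminating nucleotide) and Oasl1, a catalytically inactive relative of the oligoadenylate synthetases, behaved likewise. Rsad2 was at 0.127, 0.217, and 0.332 CPM on D0 in Krt8+/+ cells and at 4.70, 1.00, and 5.30 CPM on D1, with the D1 library of batch 2 well below the other two. Krt8-/- libraries went from 0.792, 0.709, and 0.155 CPM to 3.23, 2.33, and 2.34 CPM. The log2 changes were 4.05 (SE 0.94, adjusted p = 0.00114) and 2.24 (SE 0.83, adjusted p = 0.0292). The Krt8+/+ call was lost without batch 1 (3.49 on the log2 scale), and the Krt8-/- call was lost without any 1 batch.

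Oasl1 was at 0.382, 0.325, and 0.554 CPM on D0 and at 4.19, 2.59, and 3.39 CPM on D1 in Krt8+/+ cells. The Krt8-/- libraries went from 1.15, 1.42, and 0.309 CPM to 5.56, 6.09, and 2.65 CPM. Its D1 libraries all lay above its D0 libraries within each genotype. The log2 rise was 3.00 (SE 0.60, adjusted p = 0.000274) and 2.32 (SE 0.54, adjusted p = 0.00139).

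Ifit3, of the tetratricopeptide family that binds viral RNA 5′ ends, rose by 2.20 (SE 0.56, adjusted p = 0.00252) in Krt8+/+ and by 2.65 (SE 0.56, adjusted p = 0.000559) in Krt8-/- cells. Bst2 rose by 0.98 (SE 0.24, adjusted p = 0.00161) and 0.85 (SE 0.23, adjusted p = 0.00485). Ifit2 and Samd9l, a translation inhibitor, passed in Krt8-/- cells as well, at log2 changes of 0.97 and 0.55, the first call lost without batch 1 or 2 (0.95 and 0.69) and the second without batch 2 or 3 (0.58 and 0.38). Ifit1, which binds uncapped RNA, did not pass in Krt8+/+ cells (1.54, SE 0.69, adjusted p = 0.063), but did with batch as a block (adjusted p = 0.0426 in edgeR) and in DESeq2 (adjusted p = 0.0416).

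Among the genes that fell on D1, Iigp1 and Gbp7, GTPases of intracellular vacuole defense, had the largest fitted falls. Iigp1, an immunity-related GTPase, went from 2.23, 1.52, and 6.31 CPM to 0.514, 0, and 0.136 CPM in Krt8+/+ cells. Without keratin 8 it went from 5.18, 0.810, and 3.94 CPM to 0.269, 0.454, and 0 CPM. All D1 libraries lay below all D0 libraries, with fitted log2 changes of -3.86 (SE 1.10, adjusted p = 0.00721) and -3.71 (SE 1.09, adjusted p = 0.00937). These calls were lost without batch 3 in both genotypes, and in Krt8-/- cells without batch 1.

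Gbp7, a guanylate-binding protein, was at 15.5, 9.86, and 7.75 CPM on D0 and at 2.35, 2.51, and 1.15 CPM on D1 in Krt8+/+ cells. The Krt8-/- libraries fell from 10.1, 8.81, and 10.7 CPM to 2.51, 2.46, and 1.32 CPM. These groups did not overlap, and the log2 changes were -2.47 (SE 0.44, adjusted p = 8.79e-05) and -2.23 (SE 0.44, adjusted p = 0.000254). Igtp and Irgm1, both immunity-related GTPases, fell in both genotypes. Thus 4 of the 6 Gbp and immunity-related GTPases were called lower in each, against 28.5% of all genes in Krt8+/+ and 26.9% in Krt8-/- cells. Mx1, a GTPase that rose over this step, and Mx2 are listed with the membrane and other effectors and are not among the 6.

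Among the 6 regulators and sensors, 3 fell in Krt8+/+ and 2 in Krt8-/- cells, against 28.5% and 26.9% of all genes. Stat2, the transactivating partner of Irf9, fell by 1.42 on the log2 scale in Krt8+/+ cells and by 1.02 in Krt8-/- cells, and Irf9 fell by 1.18 and by 0.85. The Krt8-/- calls were lost without batch 1 (Stat2 -0.82, Irf9 -0.80) and, for Irf9, without batch 2 (-0.67). Irf7, which drives interferon alpha transcription, fell by 1.25 in Krt8+/+ cells (SE 0.27, adjusted p = 0.000571), and its Krt8-/- value did not pass the test. Parp9, an ADP-ribosyltransferase partner, went from 35.4, 36.8, and 39.2 CPM to 15.4, 13.7, and 12.02 CPM in Krt8+/+ cells. Krt8-/- libraries were at 42.3, 37.7, and 34.0 CPM on D0 and on D1 at 11.9, 15.4, and 11.8 CPM. Its libraries separated cleanly by day, with log2 changes of -1.44 (SE 0.19, adjusted p = 3.83e-06) and -1.54 (SE 0.19, adjusted p = 1.83e-06). Dtx3l, the ubiquitin ligase that pairs with Parp9, fell in both genotypes too, as did Trim25, a ligase of the Rig-I pathway.

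Other cell types' markers moved over the same step. Summed B cell markers, 4 of 4 detected on D0 and D1, went from 15.8 to 32.3 CPM on D0 to 2.72 to 22.2 CPM on D1, and the 4 plasmacytoid dendritic cell markers went from 25.7 to 51.2 CPM to 4.93 to 12.4 CPM, with Siglech at 0 from D1 on. The 7 endothelial markers went from 18.4 to 34.2 CPM to 4.35 to 10.6 CPM. Summed fibroblast markers, 7 of 7 detected, went from 295 to 985 CPM on D0 to 94.7 to 255 CPM on D1. Summed macrophage markers, 8 of 8 detected in each group, were at 7.49 to 39.9 CPM on D0 and 19.9 to 161 CPM on D1. Their part in the result was not tested. In bulk RNA, fewer cells of a type and less RNA per cell cannot be told apart. Of the 19 genes called in Krt8+/+ cells, 12 were called without each batch in turn, namely Bst2, Gbp7, Ifi27, Ifit3, Irf7, Irf9, Irgm1, Mx1, Oasl1, Parp9, Stat2, and Trim25. Of the 17 in Krt8-/- cells, 6 were, namely Gbp7, Ifi27, Ifit3, Mx1, Oasl1, and Parp9, and 10 genes were called without batch 1 and 10 without batch 2.

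**Figure D2:**
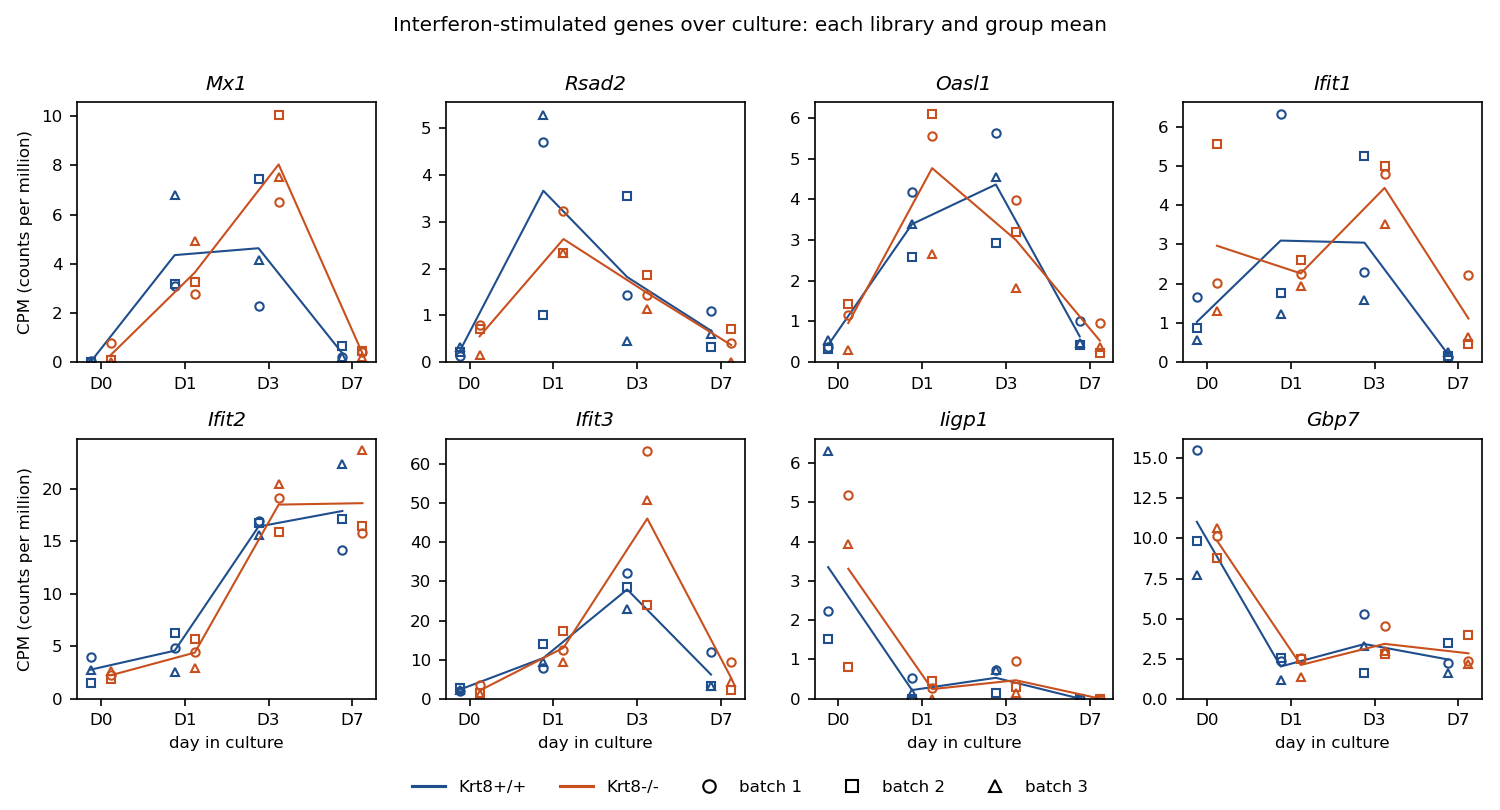
CPM of 8 genes on D0, D1, D3, and D7 on linear axes, 1 point per library (shape: batch) and lines through the group means, Krt8+/+ in blue and Krt8-/- in orange. Mx1, Rsad2, and Oasl1 are higher on D1 than on D0 and on D7, Ifit2 stays high on D7, and Iigp1 and Gbp7 are highest on D0.

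Between D1 and D3 the calls went upward. In Krt8+/+ cells 9 of 37 rose, 24.3% against 14.4% of all genes, and 0 fell against 11.9%. Krt8-/- cells had 7 that rose, 18.9% against 13.4%, and 0 fell against 10.2%. At an unadjusted p under 0.05 edgeR had 2 lower in Krt8+/+ and 0 in Krt8-/- cells. DESeq2 called 2 lower in Krt8+/+ cells (Zbp1, a Z-nucleic acid sensor, and Bst2) and 0 in Krt8-/- cells. The median log2 change was 0.36 and 0.25, against -0.05 and -0.03 for all genes.

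Ifit2 had the largest rise among the genes called in edgeR. It was at 4.85, 6.27, and 2.58 CPM on D1 and at 16.9, 16.7, and 15.5 CPM on D3 in Krt8+/+ cells. Its Krt8-/- levels were 4.48, 5.71, and 2.96 CPM on D1 and 19.1, 15.8, and 20.5 CPM on D3. The D3 libraries were alike and lay far above those of D1, with log2 rises of 1.85 (SE 0.32, adjusted p = 0.000323) and 2.07 (SE 0.33, adjusted p = 0.000131). On D7 it was still at 14.2, 17.1, and 22.4 CPM in Krt8+/+ and at 15.8, 16.4, and 23.7 CPM in Krt8-/- cells. Its log2 change from D3 to D7 was 0.13 (SE 0.31) and 0.01 (SE 0.31), neither past the test.

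Ifit3 was at 7.86, 14.0, and 9.37 CPM on D1 and at 32.2, 28.7, and 23.0 CPM on D3 in Krt8+/+ cells. For Krt8-/- cells the D1 libraries were at 12.5, 17.3, and 9.26 CPM and the D3 libraries at 63.5, 23.9, and 51.0 CPM. All D3 libraries were above all D1 libraries of their genotype, and the Krt8-/- libraries of D3 spread widely. The log2 rise was 1.43 (SE 0.50, adjusted p = 0.0412) and 1.82 (SE 0.51, adjusted p = 0.0128). Without any 1 batch the Krt8+/+ call was lost, and without batch 3 the Krt8-/- call was lost.

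Irgm1 returned to its D0 level. In Krt8+/+ cells it was at 37.4, 41.3, and 34.5 CPM on D0, 17.0, 16.0, and 23.6 CPM on D1, and 39.5, 40.3, and 38.6 CPM on D3. The Krt8-/- libraries were at 34.8, 40.1, and 30.4 CPM, then 17.8, 21.5, and 23.7 CPM, then 39.6, 42.4, and 36.9 CPM. D1 stood apart from both neighbouring days, and the rise to D3 was 1.06 (SE 0.17, adjusted p = 9.76e-05) and 0.92 (SE 0.16, adjusted p = 0.000445). The pair Dtx3l and Parp9 rose again in both genotypes, by 0.83 and 0.76 in Krt8+/+ and by 1.00 and 1.11 in Krt8-/- cells.

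Samd9l was at 35.0, 44.5, and 47.0 CPM on D1 and at 55.8, 86.9, and 82.3 CPM on D3 in Krt8+/+ cells. Krt8-/- levels went from 25.2, 42.9, and 37.8 CPM to 81.4, 66.0, and 92.6 CPM. The D3 libraries lay above the D1 libraries in both genotypes, with log2 rises of 0.83 (SE 0.20, adjusted p = 0.00447) and 1.18 (SE 0.20, adjusted p = 0.000284). Irf7 and Eif2ak2 (PKR, the kinase of eIF2 alpha) passed in Krt8+/+ cells, by 0.87 and 0.60, and not in Krt8-/- cells, by 0.25 and 0.45, and the difference was not past the test of genotype by day. Ifi27 passed in both. Calls that held without each batch in turn were Ifit2 and Irgm1 in Krt8+/+ cells and Ifit2, Irgm1, Parp9, and Samd9l in Krt8-/- cells. The Krt8+/+ calls numbered 3 without batch 2 and 3 without batch 3, and the Krt8-/- calls numbered 4 without batch 3. Summed fibroblast markers went from 94.7 to 255 CPM on D1 to 631 to 1786 CPM on D3. Summed macrophage markers were at 19.9 to 161 CPM on D1 and at 15.4 to 113 CPM on D3. The part of these cell types in the result was not tested.

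**Figure D3:**
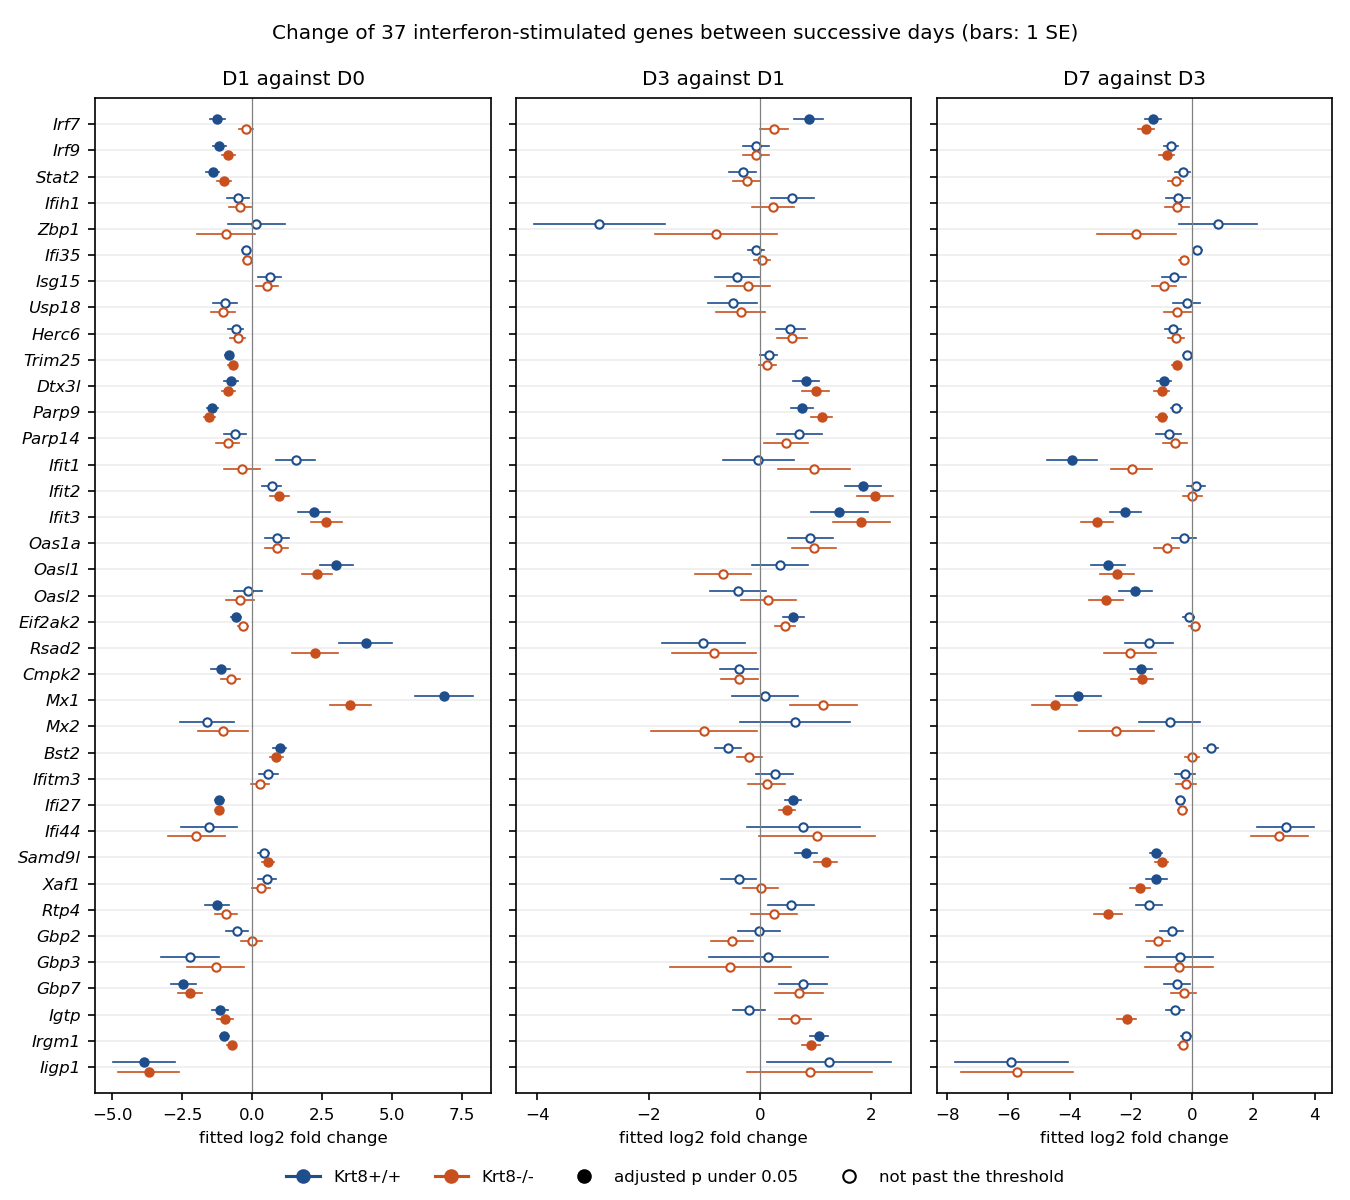
Fitted log2 fold change with 1 SE for 37 genes between successive days, Krt8+/+ in blue and Krt8-/- in orange, filled where the adjusted p was under 0.05. Filled points lie on both sides of 0 from D0 to D1, to the right from D1 to D3, and to the left from D3 to D7.

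Between D3 and D7 all calls went downward. In Krt8+/+ cells 10 of 37 fell, 27.0% against 3.47% of all genes, and 0 rose against 3.11%. Krt8-/- cells had 14 that fell, 37.8% against 6.15%, and 0 rose against 4.4%. At an unadjusted p under 0.05 edgeR had 2 higher in Krt8+/+ and 1 in Krt8-/- cells, and DESeq2 called 1 higher in each, Ifi44. The median log2 change was -0.59 and -0.92, against -0.01 and 0 for all genes, and 32 and 34 of the 37 fitted changes were below 0. Calls downward were in all 5 role groups in Krt8-/- cells and in all but the Gbp and immunity-related GTPases in Krt8+/+ cells.

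Among the genes called in edgeR, Ifit1, Mx1, and Oasl1 had the largest falls in Krt8+/+ cells, and Mx1, Ifit3, and Oasl2 in Krt8-/- cells. Mx1 was at 2.296, 7.45, and 4.14 CPM on D3 and at 0.204, 0.663, and 0.199 CPM on D7 in Krt8+/+ cells. Krt8-/- libraries had 6.51, 10.1, and 7.53 CPM on D3 and 0.400, 0.467, and 0.191 CPM on D7. The days did not overlap, with log2 changes of -3.71 (SE 0.72, adjusted p = 0.0028) and -4.49 (SE 0.73, adjusted p = 0.000326).

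Ifit1 was at 2.296, 5.25, and 1.59 CPM on D3 and at 0.136, 0.166, and 0.265 CPM on D7 in Krt8+/+ cells. The Krt8-/- libraries went from 4.80, 5.002, and 3.52 CPM to 2.23, 0.467, and 0.638 CPM. The log2 change was -3.93 (SE 0.81, adjusted p = 0.00434) in Krt8+/+ cells. In Krt8-/- cells, where the D7 library of batch 1 was the high one, it was -1.97 (SE 0.67, adjusted p = 0.0673), and it passed with batch as a block (adjusted p = 0.0251 in edgeR) and without batch 1.

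Oasl1 went from 5.64, 2.92, and 4.54 CPM to 1.02, 0.415, and 0.464 CPM in Krt8+/+ cells. The Krt8-/- levels went from 3.98, 3.19, and 1.83 CPM to 0.972, 0.234, and 0.383 CPM. It was lower in every D7 library than in any D3 library, by 2.76 (SE 0.56, adjusted p = 0.00358) and 2.45 (SE 0.56, adjusted p = 0.00611) on the log2 scale. Its relative Oasl2 fell from 5.77, 6.03, and 2.78 CPM to 1.63, 1.66, and 0.729 CPM, and in Krt8-/- cells from 9.53, 5.12, and 6.20 CPM to 1.20, 1.40, and 0.383 CPM. The Oasl2 groups were likewise separate, with log2 changes of -1.86 (SE 0.54, adjusted p = 0.0417) and -2.80 (SE 0.56, adjusted p = 0.00203).

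Ifit3 went down to 12.05, 3.23, and 3.18 CPM in Krt8+/+ and to 9.44, 2.26, and 4.21 CPM in Krt8-/- cells, and batch 1 was the high library of D7 in both. The fall was 2.18 (SE 0.52, adjusted p = 0.0124) and 3.10 (SE 0.53, adjusted p = 0.000558) on the log2 scale. Cmpk2, a mitochondrial nucleotide kinase that neighbours Rsad2 on chromosome 12, fell from 5.44, 3.69, and 3.69 CPM to 1.23, 1.24, and 1.52 CPM and, in Krt8-/- cells, from 4.94, 4.52, and 6.97 CPM to 1.60, 2.18, and 1.53 CPM. Irf7, Dtx3l, Samd9l, and Xaf1, an antagonist of inhibitors of apoptosis, also fell in both genotypes. In Krt8-/- cells Rtp4, a chaperone-like membrane protein, fell by 2.75 (SE 0.45, adjusted p = 0.000379) and Igtp fell by 2.13 (SE 0.30, adjusted p = 8.52e-05), while the Krt8+/+ values, -1.40 (adjusted p = 0.0558) and -0.57 (adjusted p = 0.298), did not pass. With batch as a block, the Krt8+/+ value of Rtp4 passed (-1.39, adjusted p = 0.0391 in edgeR). The genotype by day test did not pass for either gene.

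Ifi44, a cytoplasmic protein with a GTP-binding motif, had higher values on D7. It was at 0.197, 1.10, and 0.851 CPM on D3 and at 5.10, 10.4, and 2.58 CPM on D7 in Krt8+/+ cells. Krt8-/- libraries had 0.411, 1.21, and 0.423 CPM on D3 and 6.58, 6.31, and 2.10 CPM on D7. The D7 libraries lay above those of D3 in both genotypes, and the fitted changes of 3.05 (SE 0.93, adjusted p = 0.0534) and 2.85 (SE 0.93, adjusted p = 0.055) just missed the threshold. With batch as a block both passed (adjusted p = 0.0328 and 0.0249 in edgeR), as they did in DESeq2.

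The number of calls from D3 to D7 depended on the batches kept, and so did that over all genes. In Krt8+/+ cells 6, 1, and 5 were called without batches 1, 2, and 3, where 534, 325, and 572 of all genes were called in place of 1188. The 1 call left without batch 2 was Cmpk2, while Mx1 (-3.96), Oasl1 (-2.78), and Ifit1 (-3.23) kept large changes with adjusted p of 0.0775, 0.0834, and 0.12 in edgeR. No gene was called without each batch in turn in Krt8+/+ cells. The Krt8-/- counts were 11, 9, and 7 without batches 1, 2, and 3, and Ifit3, Igtp, Mx1, and Rtp4 were called each time. Fibroblast markers were present in both days, at 631 to 1786 CPM on D3 and 834 to 3175 CPM on D7, and summed macrophage markers were at 15.4 to 113 CPM and 6.06 to 124 CPM. Their part in the result was not tested.

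Compared with fresh cells, more of the genes were lower than higher on D7. In that comparison 6 of 37 were higher in Krt8+/+ cells (16.2%) against a background of 28.6%, and 18 (48.6%) were lower against 30.2%. Of the Krt8-/- values, 5 (13.5%) were higher against 28.6%, and 20 (54.1%) were lower against 29.9%. This comparison shares its D0 libraries with that of D1 against D0 and its D7 libraries with that of D7 against D3. The median log2 change was -0.84 and -1.03, against 0 for all genes in both genotypes. Without each batch in turn, 15 of the 24 calls in Krt8+/+ and 16 of the 25 in Krt8-/- cells held.

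Bst2, Ifit2, Ifit3, and Oas1a, the 2'-5' oligoadenylate synthetase that activates RNase L, were higher on D7 than on D0 in both genotypes. The Bst2 call in Krt8-/- cells (0.65) was lost without batch 1 (0.68) or 2 (0.51). Ifit2 was higher by 2.66 (SE 0.34, adjusted p = 1.14e-06) and 3.05 (SE 0.35, adjusted p = 2.36e-07) on the log2 scale. Oas1a was at 1.14, 1.95, and 1.11 CPM on D0 and at 5.04, 5.14, and 1.79 CPM on D7 in Krt8+/+ cells, and at 1.94, 2.73, and 1.55 CPM and 5.20, 5.14, and 2.17 CPM in Krt8-/- cells. Batch 3 was low on D7 in both genotypes, so the days overlapped, and the log2 rise was 1.51 (SE 0.43, adjusted p = 0.0048) and 1.01 (SE 0.41, adjusted p = 0.041). Without batch 1 it was 1.17 and 0.78 and neither call held, and the Krt8-/- call was also lost without batch 2 (1.15). The Ifit3 rise in Krt8+/+ cells, 1.45 (SE 0.56, adjusted p = 0.0316), was 0.38 without batch 1, and its call was lost without batch 1 or 3. In Krt8-/- cells it was 1.36 (SE 0.56, adjusted p = 0.0413), lost without batch 3. Ifi44 (2.29, SE 0.90, adjusted p = 0.0341) and Mx1 (3.23, SE 1.25, adjusted p = 0.032) were higher in Krt8+/+ cells, both calls lost without batch 2 or 3. For Mx1, which had 14 counts on D7 against 1 on D0, the ratio was 11.4 with a counting interval of 1.73 to 481.

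At the other end, Iigp1 had no count in any of the 6 D7 libraries, against 106 counts on D0 in Krt8+/+ and 131 in Krt8-/- cells. Its D0 mean lay 46.7-fold above a floor of 3 counts over the D7 group in Krt8+/+ and 50.8-fold above it in Krt8-/- cells (adjusted p of the change 0.000356 and 0.000304 in edgeR). Such floors cover counting error on D7 only. The D0 libraries ran from 1.52 to 6.31 CPM in Krt8+/+ and from 0.810 to 5.18 CPM in Krt8-/- cells, a spread these ratios leave out. Cmpk2 was at 12.1, 15.4, and 8.97 CPM on D0 in Krt8+/+ cells and at 12.2, 13.9, and 10.4 CPM in Krt8-/- cells, every library above every D7 library. Its log2 fall was 3.18 (SE 0.38, adjusted p = 4.18e-07) and 2.78 (SE 0.37, adjusted p = 1.69e-06).

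Ifit1 was lower by 2.42 in Krt8+/+ cells (SE 0.84, adjusted p = 0.0177), a call lost without batch 1 or 2, and its Krt8-/- value of -1.37 did not pass but was -2.60 and called without batch 1 (adjusted p = 0.0132 in edgeR). Zbp1 and Mx2 were called lower in Krt8-/- cells at few counts. Mx2 went from 1.01, 2.53, and 0.232 CPM to 0, 0.0779, and 0.0638 CPM, which is 42 counts against 2 and a ratio of 26.3 with a counting interval of 6.84 to 224. Zbp1 went from 1.08, 1.52, and 0.773 CPM to 0, 0, and 0.255 CPM, with a log2 change of -3.56 (SE 1.24, adjusted p = 0.018) that lost its call without batch 1 or 2. The D0 and D7 libraries of both genes were separate.

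Among the remaining genes, Xaf1 and Gbp2 (a guanylate-binding protein) were lower on D7 than on D0 in both genotypes, and Usp18, which removes Isg15 from proteins, was lower as well, by 1.63 and by 1.88 on the log2 scale. Both Usp18 calls were lost without batch 1, and its Krt8+/+ days overlapped (7.09 CPM on D0 in batch 3, 7.30 CPM on D7 in batch 2). Xaf1 lost its Krt8+/+ call without batch 2 or 3 and its Krt8-/- call without batch 3. The Krt8-/- call of Gbp2 was lost without batch 1. Gbp3, Ifih1 (Mda5, a sensor of long double-stranded RNA), Ifitm3, and Isg15 were called by edgeR in none of the 8 comparisons of days. Of these, Gbp3 was called lower on D7 than on D0 in Krt8+/+ cells by DESeq2 (-2.48, adjusted p = 0.0356), and with batch as a block on D1 in Krt8+/+ (-2.43, adjusted p = 0.0346) and on D7 in Krt8-/- cells (-2.35, adjusted p = 0.0481), each against D0 in edgeR. Isg15, the ubiquitin-like modifier of this response with 3 cores in the sequence above, was at 1.21 ± 0.439 CPM (SD, n = 3) on D0, 1.88 ± 0.755 on D1, 1.41 ± 0.290 on D3, and 0.938 ± 0.187 on D7 in Krt8+/+ cells, and at 1.52 ± 0.389, 2.19 ± 0.801, 1.90 ± 0.0653, and 1.01 ± 0.288 CPM in Krt8-/- cells. Its fitted changes ran from -0.92 to 0.62 on the log2 scale, at counts that leave changes of that size undecided.

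The genotypes were compared on each day to ask whether keratin 8 changes the interferon-stimulated program. None of the 37 genes passed in edgeR on D0, D1, D3, or D7, where 0.0277%, 0.0166%, 0.0166%, and 0.0166% of all genes did. Averaged over the 4 days, 0 of 37 passed against 0.0665% of all genes, and 0 passed the test of a genotype difference that changes with day, against 0.00554%. At an unadjusted p under 0.05 there were 2, 1, 1, and 2 on the 4 days, 3 over all days, and 1 for genotype by day. DESeq2 called 0 in each of the 6 tests, as did edgeR with batch as a block and without any 1 batch, batch 1 with its sex-linked difference included.

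The precision of this result differs by gene. Over all days, the 95% interval of the genotype difference lay within 2-fold either way for 30 of 37 genes and within 1.5-fold for 21. These intervals come from the fit without a batch term, which takes the libraries of the 4 days as independent. With 3 batches whose libraries are correlated, they may not measure the spread between batches. Their SEs were derived from the test value and may be too small for genes with few counts. On D0, D1, and D3 the interval lay within 2-fold for 18, 18, and 19 genes. The D7 count, 21, takes in Iigp1, which had 0 counts in both genotypes on that day and so has no usable interval. The remaining genes, mostly low in counts, leave larger differences undecided at this depth.

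Ifit1 had the smallest p over all days, with a difference of 1.02 on the log2 scale, Krt8-/- minus Krt8+/+ (SE 0.35, 95% interval 0.29 to 1.75, adjusted p = 1 in edgeR). Within batches 1, 2, and 3 it was 0.73, 0.98, and 0.92. On D0 Ifit1 was at 1.65, 0.867, and 0.554 CPM in Krt8+/+ and at 2.01, 5.57, and 1.31 CPM in Krt8-/- cells, so the Krt8-/- library was higher in each batch though the groups overlapped. On D1 the order was not kept, with 6.32, 1.76, and 1.22 CPM in Krt8+/+ and 2.24, 2.59, and 1.95 CPM in Krt8-/- cells. Its largest daily difference was on D7, 2.51 (SE 0.82, adjusted p = 1 in edgeR), where the 3 Krt8-/- libraries given above lay above the 3 Krt8+/+ libraries.

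Oas1a was next, at 0.45 (SE 0.20, 95% interval 0.03 to 0.88, adjusted p = 1 in edgeR), with 0.38, 0.47, and 0.41 within the batches. On D3 it was at 4.85, 4.93, and 4.65 CPM in Krt8+/+ and at 8.71, 6.27, and 7.32 CPM in Krt8-/- cells, which did not overlap. On D1 Irf7 was at 2.86, 1.67, and 2.65 CPM in Krt8+/+ and at 2.96, 3.83, and 5.60 CPM in Krt8-/- cells, a difference of 0.78 (SE 0.27, adjusted p = 1 in edgeR) that was 0.05, 1.13, and 1.04 within batches 1, 2, and 3. The genotypes of batch 1 also differed in sex-linked transcripts, and the part of sex in these differences was not tested. Rtp4 on D1 was at 3.01, 3.76, and 2.51 CPM and at 3.32, 7.65, and 5.45 CPM, a difference of 0.83 (SE 0.42).

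Igtp had differences of opposite sign on D3 and D7. On D3 it was at 3.54, 3.37, and 3.63 CPM in Krt8+/+ and at 6.86, 5.36, and 4.58 CPM in Krt8-/- cells, and on D7 it was at 1.84, 2.90, and 2.39 CPM and at 1.37, 1.01, and 1.40 CPM. The genotypes did not overlap on either day. The differences were 0.67 (SE 0.28) and -0.90 (SE 0.30), and the test of genotype by day had an adjusted p = 1 in edgeR. Ifi35 on D3, at 24.7, 24.8, and 29.4 CPM and at 31.4, 30.6, and 31.6 CPM, differed by 0.25 (SE 0.15). The D0 difference of Mx1, 3.10 (SE 1.27, adjusted p = 1 in edgeR), rests on 1 count against 12, a ratio of 11.1 with a counting interval of 1.64 to 475.

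Taken within each batch, more of the 37 genes were higher in the Krt8-/- library on D3. They numbered 27, 22, and 27 in batches 1, 2, and 3. These shares were 73.0%, 59.5%, and 73.0%, against 50.2%, 49.3%, and 50.5% of all genes. On D7 the counts were 16, 15, and 16, on D0 they were 17, 24, and 18, and on D1 they were 17, 25, and 23. Of all genes, 47.6% to 51.9% were higher in the Krt8-/- library on those days. On D3, 11 genes were higher in Krt8-/- cells in all 3 batches and 1 was lower in all 3, where all genes had 15.2% and 14.0%. These counts were 7 and 6 on D0 (all genes 12.1% and 11.9%) and 8 and 3 on D1 (15.3% and 14.1%). On D7 they were 4 and 7 (12.4% and 11.7%). The genes are not independent of one another, and the median difference on D3 was 0.16 on the log2 scale.

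**Figure D4:**
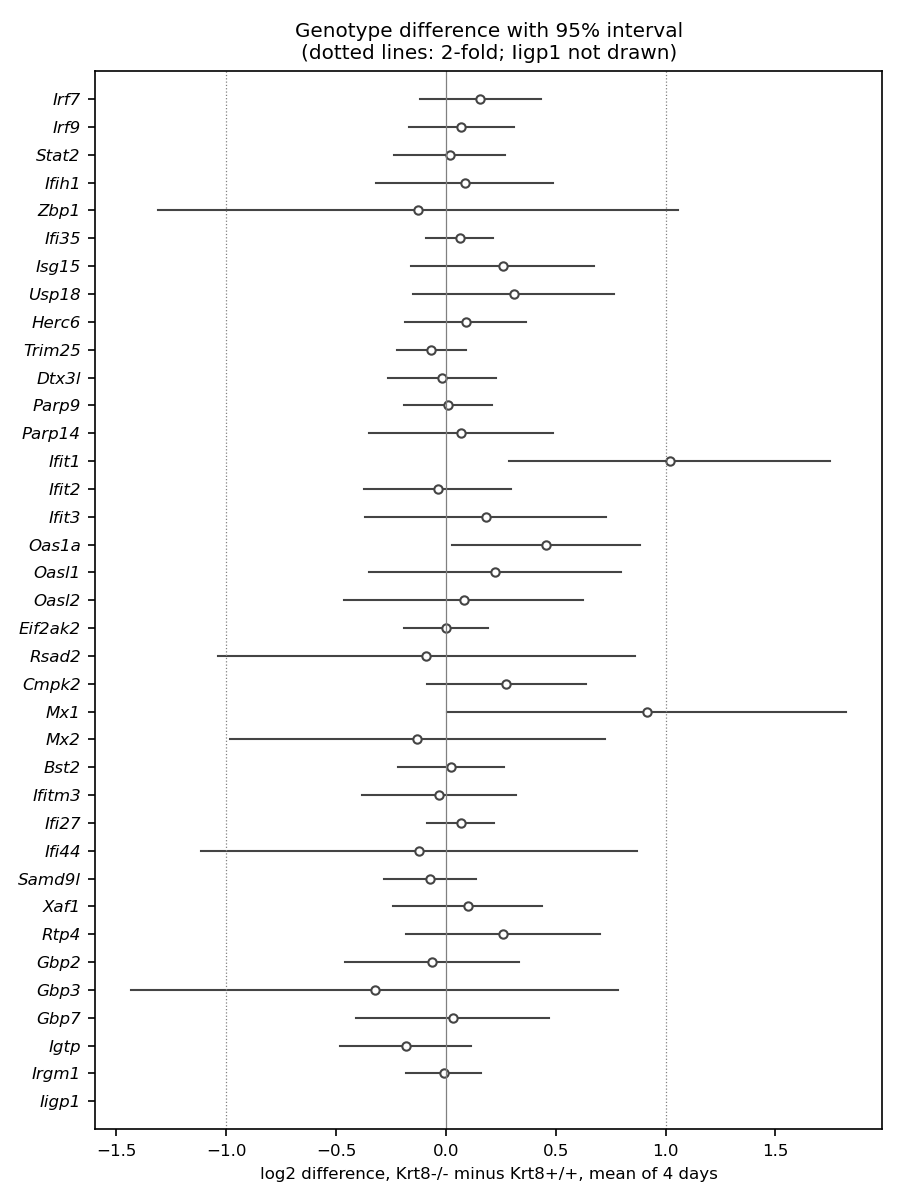
Log2 difference between Krt8-/- and Krt8+/+ cells averaged over 4 days, with its 95% interval, with dotted lines at 2-fold. Of the intervals, 30 lie within the dotted lines, and the wide ones, among them those of Mx1 and Ifit1, belong to genes of low count. Iigp1, at 0 in both genotypes on D7, has no usable interval and is not drawn.

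Batches were compared as well. In a fit with batch as a term, 0 of 37 passed against 3.37% of all genes, 8 had an unadjusted p under 0.05, where 19.3% of all genes did, and Usp18 was nearest (adjusted p = 0.0562 in edgeR). Its mean log2 CPM was 3.26, 3.48, and 2.64 in batches 1, 2, and 3, and that of Oasl2 was 2.48, 2.21, and 1.48. Batch 3 was the lowest for both. Summed macrophage markers were at 28.5 to 161 CPM in batch 1, 19.6 to 83.9 CPM in batch 2, and 6.06 to 21.3 CPM in batch 3. Their part in the result was not tested. The sex-linked pattern given above differed between batches as well.

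Ligands and receptors put these values in context. Of 12 interferon ligand genes 1 passed the filter, Ifnab, an interferon alpha gene, which had 41 counts in the Krt8+/+ and 13 counts in the Krt8-/- libraries of D1 and 0 in the libraries of the other days. Its D1 levels ran from 0.167 to 1.77 CPM in Krt8+/+ and from 0.0778 to 0.897 CPM in Krt8-/- cells, and the Krt8+/+ rise was called (adjusted p = 0.0174 in edgeR), the Krt8-/- rise not (adjusted p = 0.0586). Ifnb1 had no count in any library, and the other listed ligand genes had at most 9 counts in a group. The alpha genes among the 12 were Ifna2, Ifna4, Ifna5, Ifna13, and Ifnab, and no other alpha gene was looked up. Interferon protein was not measured.

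All 6 receptor chains passed the filter. Ifnar2 fell from D0 to D1 by 1.02 (SE 0.12, adjusted p = 6.19e-07) and by 0.94 in Krt8-/- cells, and Il10rb, shared by the type III receptor, fell by 1.38 in Krt8+/+ cells. Ifnar1 did not pass over that step. Ifngr2, a chain of the interferon gamma receptor, rose at each step in Krt8+/+ cells, from 49.4 ± 8.55 CPM (SD, n = 3) on D0 to 136 ± 3.33 CPM on D7. Of the 10 kinases and transcription factors, 1 rose and 5 fell from D0 to D1 in both genotypes, against 26.2% and 28.5% of all genes in Krt8+/+ and 23.7% and 26.9% in Krt8-/- cells, among the latter Irf2 (-1.49 in Krt8+/+ cells).

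Ddx58 (Rig-I, the sensor of RNA 5′ triphosphates) fell by 0.78 to D1, rose by 0.93 to D3, and did not change past the test to D7 (-0.08, SE 0.13) in Krt8+/+ cells. Among 11 sensors and adaptors, 3 rose and 5 fell to D1 in Krt8+/+ cells, against 26.2% and 28.5% of all genes, and 5 rose and 1 fell to D3, against 14.4% and 11.9%. Ticam1, the adaptor of Toll-like receptor 3, fell by 1.87 and rose by 1.33 over these steps.

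The 8 negative regulators had 2 rises and 3 falls to D1 in Krt8+/+ cells, against the same 26.2% and 28.5%. Socs1, a feedback inhibitor of Jak kinases, rose by 2.33 (SE 0.48, adjusted p = 0.000383) and then fell by 1.86 to D3, and Socs3 fell by 2.10 from D1 to D3. Over all 36 pathway genes tested, 1 rose and 2 fell from D3 to D7 in Krt8+/+ cells, against 3.11% and 3.47% of all genes, and 0 rose and 6 fell in Krt8-/- cells, against 4.4% and 6.15%. Of 53 other interferon-stimulated genes tested in Krt8+/+ cells, 6 rose and 20 fell to D1 (all genes 26.2% and 28.5%), 9 rose and 3 fell to D3 (14.4% and 11.9%), and 1 rose and 3 fell to D7 (3.11% and 3.47%). The Krt8-/- counts were 4 and 21 (23.7% and 26.9%), 12 and 2 (13.4% and 10.2%), and 2 and 11 (4.4% and 6.15%). Ifi47, a GTPase of the Irgm1 family, rose by 2.51 (SE 0.33, adjusted p = 1.58e-05) from D1 to D3, and Ifit1bl2, which shares sequence with Ifit1, rose from 1 count on D0 to 112 counts on D1 in Krt8+/+ cells. By genotype over all days, 0 of the 36 and 0 of the 53 passed in edgeR, where 2 of each had an unadjusted p under 0.05.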

How the data were processed

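RNA-seq was performed on 24 AEC libraries (8 groups, 3 batches). The authors deposited raw read counts per Ensembl gene, and the submitters' processing notes name cutadapt 2.3, STAR 2.7.8a, RSEM 1.3.3, and build GRCm38, without roles. Whether the whole-number counts are rounded estimates is not stated. Symbols came from GENCODE M21, matched for 55154 of 55421 identifiers.

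After edgeR's filterByExpr with a minimum of 10 counts (15 in total), counts were scaled with TMM, and fitted in 1 quasi-likelihood model with edgeR 4.0.16 in R 4.3.3 (8 groups, 16 residual degrees of freedom), with Benjamini-Hochberg adjustment over 18046 genes and a threshold of 0.05. Fold changes are log2. Each SE is the absolute fitted log2 change divided by the square root of the F value of its quasi-likelihood test. The 95% intervals of log2 changes were built from it. Where a group has few counts, such an SE may be too small. DESeq2 1.42.0 was an alternative. On simulated data, only the comparison of genotypes over all days was tried, without a batch effect. The comparisons of days were not simulated. No pair of libraries within a group was identical, and pairs from different groups were not compared. Counting intervals are exact 95% intervals for the ratio of Poisson counts. The labels give 3 batches, named by date, as biological replicates. The 38 genes were picked by name with no cutoff on values, but this list and the others were drawn up with earlier results of these data known.

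The batch label pairs libraries. After removal of group means, libraries of 1 batch correlated at -0.03 to 0.38 across days in Krt8+/+, -0.01 to 0.28 in Krt8-/-, and 0.06 to 0.55 between genotypes. The genes named with values in each library were, for each pair of days and genotype, the 3 called genes with the largest rise and the 3 with the largest fall among those at 1 CPM or more in a group and of the same direction in all 3 batches, and between genotypes the 2 with the smallest p. From the pathway lists, up to 4 genes with the smallest p per step were named, other than a result that is not reported here. Irgm1, Samd9l, Cmpk2, Oasl2, Rtp4, Igtp, Ifit2, and Ifi44 in further comparisons, Isg15, Socs1, and Ifnab were chosen after their values were seen. Alternatives were DESeq2's size factors and test, no filter on low counts, each batch left out, batch as a block, and a fit of the 6 libraries compared.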

Additional observations from a re-analysis of the deposited data

How the results depend on the processing

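The comparisons of genotype gave 0 called genes under every alternative run. With the replicate block, counts of calls were 24, 10, 12, and 24 in Krt8+/+ cells (D1 against D0, D3 against D1, D7 against D3, D7 against D0) and 21, 8, 18, and 26 in Krt8-/- cells, and no call was changed by it other than the gains these counts show. Leaving out 1 batch at a time gave 3 to 6 calls for D3 against D1 (9 with all) and 1 to 6 for D7 against D3 (10) in Krt8+/+ cells. In Krt8-/- cells it gave 10 to 15 for D1 against D0 (17), 4 to 6 for D3 against D1 (7), and 7 to 11 for D7 against D3 (14). In the batch test it gave 0 to 1, and without a filter on low counts 2 passed (Usp18 and Oasl2). Fewer libraries enter each of these fits, and the cause of the other moves was not tested. Of the values of 46 named changes under the alternatives, 332 kept their direction and side of the threshold, 26 lost the threshold, and 0 changed sign. The named changes between days were picked as called and of the same direction in all 3 batches. Those between genotypes were not called and could not lose the threshold. The tally therefore does not measure how stable the other calls were. The median of all genes moved by over 0.1 on the log2 scale for D1 against D0 alone, by 0.10 without batch 2 and 0.10 in the 6-library fit in Krt8+/+ cells, and by 0.11 without batch 2 in Krt8-/- cells. Depth limits Mx2, Zbp1, and Oas2, which had 145, 172, and 56 counts over the 24 libraries, and Iigp1 on D7, where it had none.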
